A study of Homo sapiens with 4 samples.

Results

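Glycolysis, glucose uptake and the response to low oxygen are represented here by 39 named genes, chosen by symbol: 2 glucose transporters, 16 glycolytic enzymes, 5 regulatory kinases, 2 lactate transporters, 7 regulators of hypoxia-inducible factor (HIF) and 7 HIF targets. All 39 were found among the 63241 genes of the table. They were measured by poly(A) RNA sequencing of 22Rv1 cells, a human prostate carcinoma line labelled as castration-resistant, in 2 libraries after 12 h with 40 nM JMC45 and in 2 libraries after 12 h with the DMSO vehicle. JMC45, called D45 in the series title, is described as a degrader of CDK9, the kinase that releases paused RNA polymerase II into elongation. All libraries come from a single cell line, the labels name no change of oxygen, and nothing says that the replicates were grown separately. The p-values therefore reflect only how much these libraries spread, which may be technical.

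Glycolysis splits glucose into pyruvate in the cytosol, and lactate dehydrogenase turns pyruvate into lactate, which leaves the cell through proton-coupled carriers. HIF is a pair of an oxygen-labile alpha subunit and the stable subunit ARNT. With oxygen present, EGLN prolyl hydroxylases mark the alpha subunit for destruction through VHL, and HIF1AN blocks its contact with coactivators. When oxygen is low, HIF activates genes for glucose uptake, glycolysis, lactate output and blood vessel growth, and many carcinoma lines express part of this programme in normal oxygen.

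Values are TPM, which count transcripts per length as a share of each library, so a change is a change of share, and fewer cells of a type cannot be told apart from less RNA per cell. Changes are differences in log2(TPM + 1), JMC45 over vehicle, tested with limma across the 14018 genes with a mean of at least 1 TPM, and "rose" and "fell" mark a Benjamini-Hochberg adjusted p under 0.05. Of all genes tested 80.7% fell and 4.25% rose, and the median change was -1.10. Mitochondrially encoded genes held 28.0% ± 1.90 of TPM in JMC45 and 20.3% ± 0.225 in vehicle (SD, n = 2 each), and cytosolic ribosomal protein genes held 29.8% and 28.2% in JMC45 and 18.4% and 20.0% in vehicle. Their part in the changes below was not tested beyond the other scalings given. Median-of-ratios scaling centres the typical gene near 0, and on it 35.3% fell and 35.5% rose. With quantile normalization 32.8% fell and 33.6% rose, and with TPM rescaled to an equal total of mitochondrially encoded genes 90.5% fell and 1.29% rose. Directions that depend on this choice are named. All 9 luminal prostate markers exceeded a mean of 1 TPM, with summed levels of 429.92 to 439.66 TPM in JMC45 and 1184.3 to 1221.01 TPM in vehicle. No leukocyte or endothelial marker of 11 did, with sums of at most 0.97 and 0.09 TPM in JMC45 and 1.99 and 0.20 TPM in vehicle, and CD3E, CDH5 and KDR were listed at 0. Of 6 fibroblast markers 2 exceeded 1 TPM (sums 6.38 to 7.08 in JMC45, 7.34 to 7.83 in vehicle), and of 3 red blood cell markers 2 did, led by HBA2 (sums 28.75 to 36.27 in JMC45, 31.04 to 39.44 in vehicle).

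Most glycolytic enzymes differed little in share, while SLC2A1, the lactate carriers, most HIF regulators and the enzymes HK2 and LDHA lost a large part of theirs. The median gene also lost share (-1.10), and the lactate carrier SLC16A1 (-1.13) lay close to it. The 7 enzymes that fell were HK1, HK2, PFKP, ENO1, PKM, LDHA and LDHB, and of the 16 only HK2 and LDHA fell by more than the median gene. Of the 35 members that passed the filter on low values, 23 fell and 1 rose on TPM, beside 80.7% and 4.25% of all genes tested. On the median-of-ratios scale 10 fell and 19 rose, beside 35.3% and 35.5%. With quantile normalization 12 fell and 14 rose, beside 32.8% and 33.6%. SLC2A3, CA9, EGLN3 and ADM did not pass the filter, and SLC16A3, EPAS1 and ANKRD37 passed only through their vehicle level. Among the 16 enzymes 7 fell, 1 rose and 8 did not pass the test, with a median change of -0.14, and among the 11 HIF regulators and targets that passed the filter 10 fell and none rose, with a median of -1.36. On the median-of-ratios scale the medians were 1.22 for the enzymes, of which 13 rose and 2 fell, and -0.07 for the HIF group, of which 3 rose and 5 fell. In 11 of the 16 enzymes and in all 11 of the HIF group both JMC45 libraries lay below both vehicle libraries, as in 85.7% of all genes tested. In 2 enzymes both lay above, as in 6.28% of all genes tested.

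**Figure D1:**
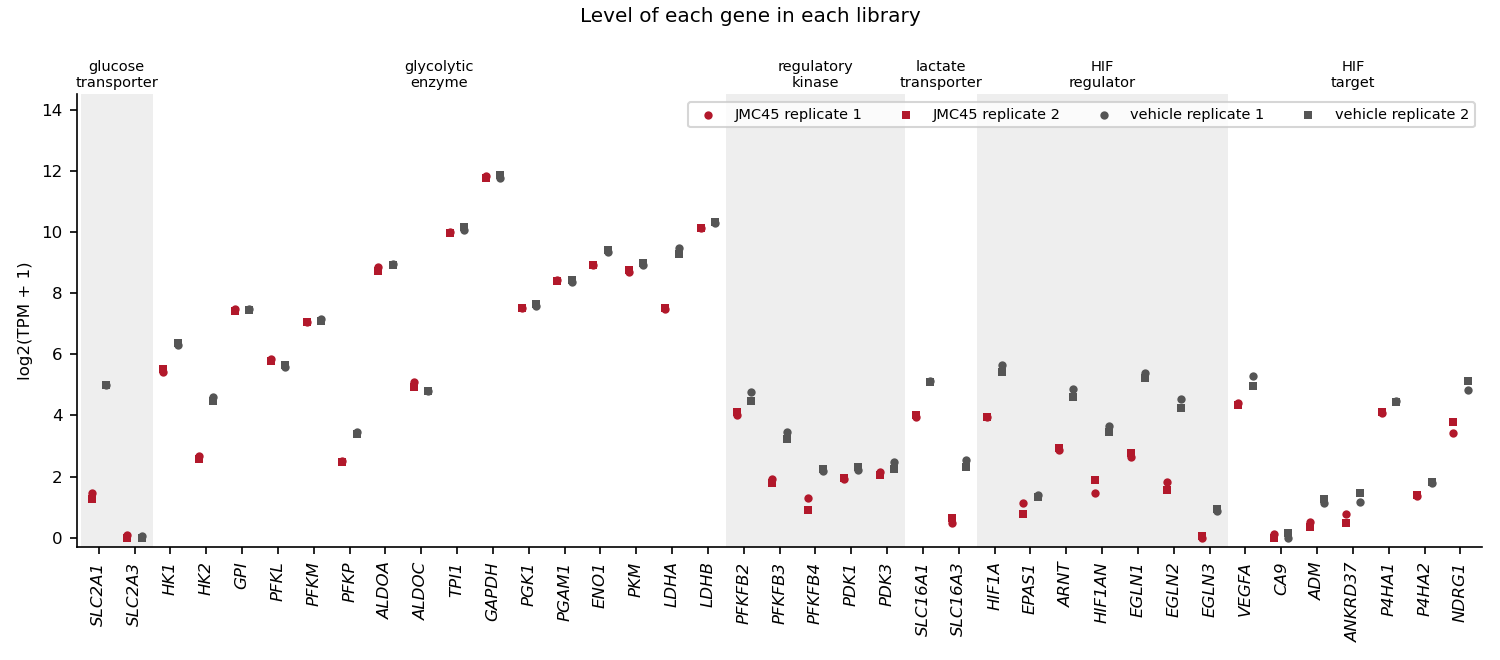
Level of each of the 39 genes in each library, as log2(TPM + 1) on the vertical axis, with JMC45 libraries left of vehicle libraries for each gene and genes grouped by role. Most enzymes sit at the same height in all 4 libraries, whereas SLC2A1, HK2, LDHA and the HIF regulators sit lower in JMC45.

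SLC2A1 (ENSG00000117394), which encodes GLUT1, the basal glucose carrier of many proliferating cells, had the largest decrease of the 35. It measured 1.76 and 1.41 TPM in JMC45, against 30.57 and 31.00 TPM in vehicle. Both JMC45 libraries were far below both vehicle libraries, and the groups did not overlap. The log2 change was -3.62 (SE 0.12, limma adjusted p = 9.82e-06), a 19.4-fold lower mean TPM, and it ranked 37 of 14018 when genes were ordered from the largest decrease. On the median-of-ratios scale it was still -2.52. SLC2A3, the high-affinity carrier typical of neurons, was near 0 throughout, with 0.05 and 0.00 TPM in JMC45 and 0.03 and 0.00 TPM in vehicle.

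Hexokinases trap glucose in the cell by phosphorylation, and the pair behaved unequally. HK2, the inducible form that is a known HIF target, fell to 5.38 and 5.01 TPM in JMC45, against 23.01 and 21.41 TPM in vehicle (log2 change -1.91, SE 0.10, limma adjusted p = 1.88e-05). HK1, the constitutive form, measured 42.13 and 44.68 TPM in JMC45 and 78.38 and 81.12 TPM in vehicle, a log2 change of -0.86 (adjusted p = 6.85e-05 with limma). HK2 thus lost more than the median gene and HK1 less. The HK1 change was 0.48 on the median-of-ratios scale, where it was called higher, while HK2 stayed lower at -0.67.

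In the middle of the pathway PFKP fell, PFKL rose, and GPI, PFKM, ALDOA and ALDOC did not pass the test on TPM. GPI, which converts glucose phosphate to fructose phosphate, measured 177 and 171 TPM in JMC45 and 176 and 172 TPM in vehicle, with overlapping groups (adjusted p = 0.963 with limma, 95% interval of the log2 change -0.14 to 0.14). PFKM, the muscle-type phosphofructokinase and the most abundant of its 3 isoforms here, measured 132 and 133 TPM in JMC45 and 140 and 134 TPM in vehicle (log2 change -0.05, 95% interval -0.19 to 0.10). The JMC45 values lay just under the vehicle values. PFKL, the liver type, was the only enzyme called higher, with 56.87 and 53.81 TPM in JMC45 against 47.03 and 49.51 TPM in vehicle. Its log2 change of 0.19 (limma adjusted p = 0.0439) was not called when any 1 of the 4 libraries was left out (0.15 to 0.23), with the replicate number as a block, without the intensity trend or without the filter on low values, and was -0.26 at an equal mitochondrial total. PFKP, the platelet type, fell to 4.69 and 4.6 TPM in JMC45, against 10.00 and 9.42 TPM in vehicle, a log2 change of -0.92 (0.26 and not called on the median-of-ratios scale). ALDOC, the brain-type aldolase, measured 32.79 and 29.61 TPM in JMC45 and 26.73 and 26.70 TPM in vehicle, higher in each JMC45 library, but its change of 0.21 did not pass (limma adjusted p = 0.0526). It was called higher at a mean TPM of at least 5 (limma adjusted p = 0.0493), without JMC45 replicate 2 (0.0495), without the mitochondrially encoded genes (0.00583), also without ribosomal protein genes (0.000431), on the median-of-ratios scale (6.95e-05) and with quantile normalization (0.000201), and was -0.23 and not called at an equal mitochondrial total. The broadly expressed aldolase ALDOA measured 465 and 419 TPM in JMC45 and 498 and 484 TPM in vehicle (log2 change -0.15, not called).

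Lower glycolysis, from TPI1 to PKM, was the most abundant part of the set. GAPDH, which couples oxidation to NADH formation, measured 3645 and 3452 TPM in JMC45 and 3493 and 3706 TPM in vehicle. The groups overlapped, and the change of -0.02 had a 95% interval of -0.18 to 0.14. GAPDH was called higher on the median-of-ratios scale (1.34). It was called lower with quantile normalization (-0.54) and at an equal mitochondrial total (-0.48). TPI1, which interconverts the triose phosphates, measured 1034 and 992 TPM in JMC45 and 1073 and 1141 TPM in vehicle (log2 change -0.13, not called). PGK1 (log2 change -0.09) and PGAM1 (0.03), the kinase and mutase that follow GAPDH, were also not called. ENO1, the main enolase, fell to 484 and 486 TPM in JMC45, against 648 and 675 TPM in vehicle (log2 change -0.45, limma adjusted p = 0.000419). PKM, pyruvate kinase, fell to 415 and 427 TPM in JMC45, against 483 and 503 TPM in vehicle (-0.23, limma adjusted p = 0.00966). The PKM call was lost without JMC45 replicate 1 (limma adjusted p = 0.0526), without vehicle replicate 2 (0.0515), without the mitochondrially encoded genes (0.251), without the intensity trend (0.0687) and with quantile normalization (0.935). ENO1 and PKM lost a smaller share than the typical gene, and on the median-of-ratios scale they were called higher at 0.91 and 1.13.

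Lactate dehydrogenase showed the sharpest contrast between isoenzymes. LDHA, the subunit that favours lactate formation, fell to 177 and 181 TPM in JMC45, against 715 and 618 TPM in vehicle. Its log2 change was -1.88 (SE 0.08, limma adjusted p = 1.19e-05), and -0.53 on the median-of-ratios scale. LDHB, the subunit typical of oxidative tissues, measured 1127 and 1129 TPM in JMC45 and 1246 and 1292 TPM in vehicle. Its log2 change of -0.17 passed (limma adjusted p = 0.0273) but not when any 1 of the libraries was left out, with the replicate number as a block, without the intensity trend, without the mitochondrially encoded genes or without the filter on low values. Within a library the ratio of LDHA to LDHB stays the same when all TPM are divided by 1 factor. It was 0.157 and 0.161 in JMC45 and 0.574 and 0.478 in vehicle, 3.31 times lower in JMC45. Quantile normalization is not such a scaling, and with it LDHA changed by -1.69 and LDHB by -0.30.

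Other isoenzyme ratios also moved without overlap. HK2 over HK1 was 0.128 and 0.112 in JMC45 and 0.294 and 0.264 in vehicle. PFKP over PFKM was 0.0356 and 0.0345 in JMC45 and 0.0715 and 0.0702 in vehicle, and ALDOC over ALDOA was 0.0705 and 0.0706 in JMC45 and 0.0536 and 0.0551 in vehicle. PFKL over PFKM was 0.431 and 0.403 in JMC45 and 0.336 and 0.369 in vehicle. The less abundant form had the lower ratio in JMC45 for lactate dehydrogenase, hexokinase and PFKP, and the higher ratio for ALDOC and PFKL. These are ratios of deposited TPM, and quantile normalization can change them. On that scale PFKP and PFKM both changed by 0.45, HK2 by -0.56 and HK1 by -0.03. ALDOC changed by 1.31, ALDOA by 0.05 and PFKL by 1.09. For each ratio the two-sided exact permutation test over libraries gave p = 0.33, the smallest value that 2 libraries against 2 allow, and the pairs were chosen after their values were seen.

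**Figure D2:**
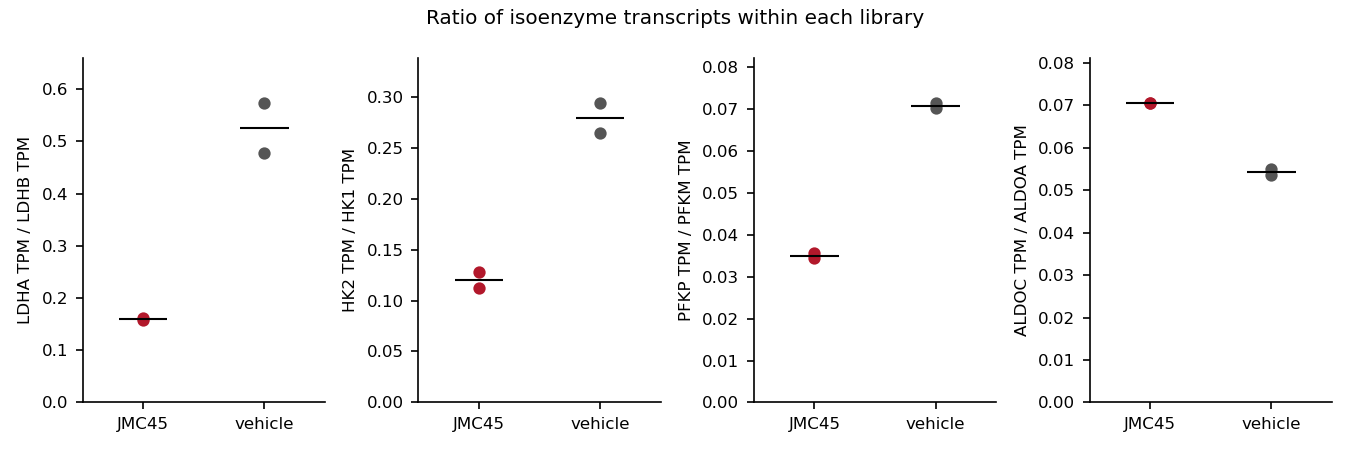
Ratio of the TPM of 2 isoenzyme transcripts within each library (vertical axes, no unit), with JMC45 left and vehicle right, points for libraries and lines for means. LDHA over LDHB averaged 0.159 in JMC45 and 0.526 in vehicle, and of the 4 ratios plotted only ALDOC over ALDOA was higher in JMC45. PFKL over PFKM, not plotted, was also higher, with means of 0.417 in JMC45 and 0.353 in vehicle.

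Summed over the 16 enzymes, glycolytic transcripts held 0.832% and 0.805% of all TPM in JMC45 and 0.917% and 0.945% in vehicle. The vehicle share was higher in both libraries, and without LDHA the shares were 0.814% and 0.787% in JMC45 against 0.846% and 0.884% in vehicle. For both sums the exact permutation test gave p = 0.33. The 105 pseudogene entries of these enzymes together had 0.0404% and 0.0629% of the enzymes' TPM in JMC45 and 0.0543% and 0.0472% in vehicle, so reads assigned to near-identical copies were few. The assignment of reads shared with such copies was not given in the sources used here. The levels of GAPDH, PGAM1 and the other enzymes with many pseudogenes are uncertain to the extent that it could move reads.

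Because abundant transcripts moved differently from the rest, the enzymes were read against genes of like level. At a vehicle mean of 100 to 1000 TPM, 3 of 8 enzymes fell, with a median change of -0.12, beside 69.4% of the 1114 genes tested there, with a median of -0.48. At 10 to 100 TPM, 2 of 4 enzymes fell, with a median of -0.34, beside 88.5% of 6665 genes with a median of -1.31. Above 1000 TPM, 1 of 3 enzymes fell, with a median of -0.13, beside 15.8% of 133 genes with a median of 0.44. Of the 48 genes there that encode neither ribosomal proteins nor mitochondrial transcripts, 41.7% fell, with a median of 0.02. All 8 HIF regulators and targets at 10 to 100 TPM fell, with a median of -1.70. Across the 35 members, log10 vehicle TPM and log2 change had a Spearman rho of 0.37, and across all 14018 genes -0.08, values that rest on the same libraries and are given as description only.

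**Figure D3:**
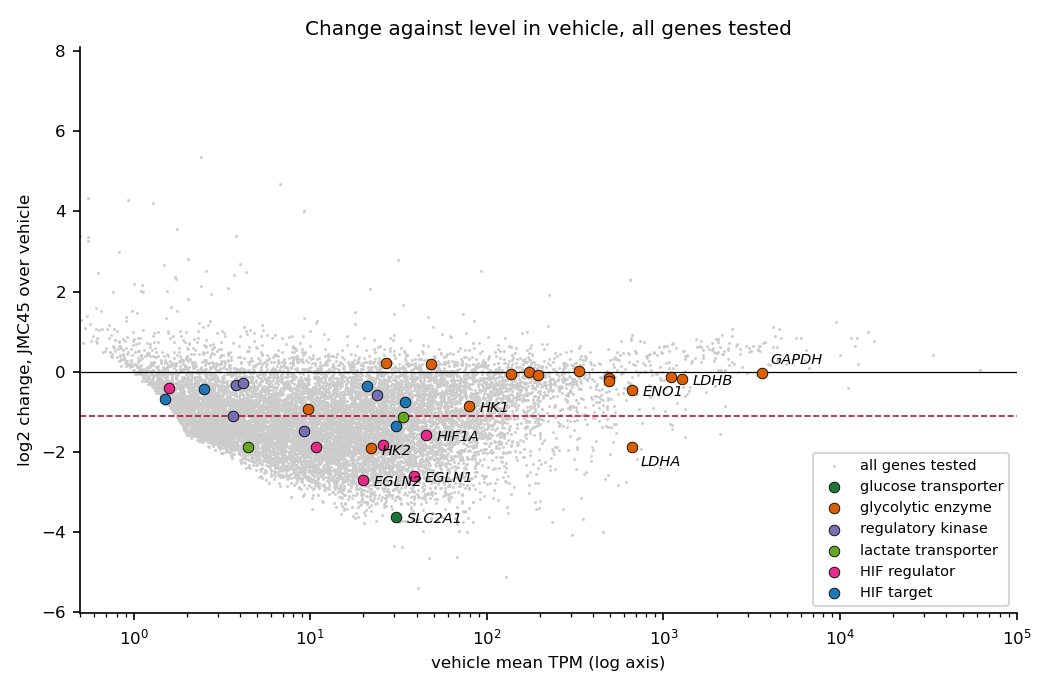
Log2 change (JMC45 over vehicle) against mean TPM in vehicle on a log axis for all genes tested (grey) and for the 35 members tested, coloured by role, with a dashed line at the median of all genes (-1.10). Most enzymes lie near 0, apart from HK1, HK2, PFKP, ENO1 and LDHA, and SLC2A1, EGLN1 and EGLN2 lie near the lower edge of genes of their level.

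Upstream sequences were searched for the core of the hypoxia response element, ACGTG or GCGTG on either strand, in the 250 bases before RefSeq starts (GRCh38.p14). Of the 39 genes 34 had an entry, with 62 windows in all, some of which overlap. The core was in 54.8% of these windows and in 43.2% of all 35116 promoter windows, and ACGTG alone in 35.5% and 18.5%. Counted by gene, at least 1 window held the core in 76.5% of the 34 members and in 47.4% of all 27305 genes. A gene with more windows has more chances of a match. By role the core was in 18 of 36 enzyme windows, 4 of 9 HIF regulator windows and 4 of 5 HIF target windows. CACGTG, an E-box that contains ACGTG on both strands, was in 12.9% of the members' windows and in 6.34% of all, and TATAAA in 11.3% and 10.7%. A match describes letters only, and which start these cells use was not measured.

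The windows of 5 genes are printed, with each match to the core in capitals, read 5′ to 3′ on the gene's strand. HK2 and ANKRD37 are the enzyme and the HIF target with the largest called change among those with a listed window and a match (for HK2 the window with more matches), SLC2A1 is the member with the largest change and none, and LDHA and LDHB, added after their values were seen, are the isoenzymes that moved unequally.
HK2 (chr2:74834920-74835169, + strand, before the later of 2 listed starts): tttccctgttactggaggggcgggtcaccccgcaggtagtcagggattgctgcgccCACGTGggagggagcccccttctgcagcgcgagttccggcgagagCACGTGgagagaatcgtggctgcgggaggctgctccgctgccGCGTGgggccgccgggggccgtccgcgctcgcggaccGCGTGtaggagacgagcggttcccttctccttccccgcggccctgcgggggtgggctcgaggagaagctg
LDHA (chr11:18394313-18394562, + strand, before the earlier of 2 listed starts): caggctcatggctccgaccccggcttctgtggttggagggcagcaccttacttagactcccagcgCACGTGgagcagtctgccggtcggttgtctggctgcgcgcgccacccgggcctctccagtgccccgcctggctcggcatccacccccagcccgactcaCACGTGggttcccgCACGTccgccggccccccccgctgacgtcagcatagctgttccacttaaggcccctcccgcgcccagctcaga
LDHB (chr12:21657843-21658092, - strand): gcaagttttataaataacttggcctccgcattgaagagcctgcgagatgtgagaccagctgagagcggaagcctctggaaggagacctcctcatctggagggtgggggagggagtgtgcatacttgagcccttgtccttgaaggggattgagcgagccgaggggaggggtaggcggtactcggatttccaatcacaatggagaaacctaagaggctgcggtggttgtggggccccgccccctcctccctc
SLC2A1 (chr1:42958869-42959118, - strand): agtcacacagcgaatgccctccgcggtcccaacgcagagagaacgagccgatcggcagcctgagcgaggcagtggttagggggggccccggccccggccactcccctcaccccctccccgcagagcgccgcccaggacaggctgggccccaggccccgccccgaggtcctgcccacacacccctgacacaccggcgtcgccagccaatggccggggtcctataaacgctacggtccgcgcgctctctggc
ANKRD37 (chr4:185396591-185396840, + strand): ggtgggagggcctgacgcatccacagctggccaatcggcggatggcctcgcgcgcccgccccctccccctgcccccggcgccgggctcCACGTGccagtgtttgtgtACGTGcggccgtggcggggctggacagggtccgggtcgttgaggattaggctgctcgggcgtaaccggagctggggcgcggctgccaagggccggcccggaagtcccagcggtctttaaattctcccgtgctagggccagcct
In the HK2 window the E-box CACGTG began 194 and 149 bases before the start and GCGTG 107 and 70 bases before it. The LDHA window had CACGTG 185 and 87 bases before the start and the reverse-strand core 73 bases before it. LDHB had no core match and 2 matches to TATAAA, which overlap in a single stretch, 1 on each strand. SLC2A1 had no core match and 1 to TATAAA. On TPM SLC2A1 had the largest decrease of the members tested and LDHB the smallest called one. GAPDH, not called on deposited TPM, also held the E-box, 81 bases before its start. Whether a match bears on a gene's change was not tested.

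The regulatory kinases set the pace of glycolysis and the entry of pyruvate into mitochondria. The bifunctional PFKFB enzymes make or remove the sugar bisphosphate that activates phosphofructokinase. PFKFB3, the form with the highest kinase activity and a known HIF target, fell to 2.80 and 2.45 TPM in JMC45, against 9.90 and 8.46 TPM in vehicle (log2 change -1.49, limma adjusted p = 0.000126). It was -0.37 on the median-of-ratios scale and, not called, -0.13 with quantile normalization. PFKFB4 fell to 1.48 and 0.86 TPM in JMC45, against 3.50 and 3.77 TPM in vehicle (-1.11), and was not called on the median-of-ratios scale (-0.21). PFKFB2, the most abundant of the 3, fell to 15.08 and 16.10 TPM in JMC45, against 26.40 and 21.16 TPM in vehicle (-0.57), and was called higher on the median-of-ratios scale (0.72). The exons of PFKFB2 overlap those of YOD1 on the other strand, at 6.85 and 5.62 TPM in JMC45 and 33.12 and 26.5 TPM in vehicle. Whether this overlap moved the PFKFB2 values was not tested. PDK1 and PDK3, kinases that switch off pyruvate dehydrogenase, changed by -0.33 and -0.27, which did not pass (limma adjusted p = 0.0574 and 0.133). For each of the 2 genes both JMC45 libraries lay below both vehicle libraries, as in 85.7% of all genes tested. Both were called higher on the median-of-ratios scale (0.71 and 0.80).

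Lactate carriers fell together on TPM. SLC16A3, which encodes MCT4, the export carrier of glycolytic cells, fell to 0.39 and 0.55 TPM in JMC45, against 4.88 and 3.99 TPM in vehicle (log2 change -1.88, limma adjusted p = 8.9e-05), and it passed the filter on low values only through vehicle. It stayed lower on the median-of-ratios scale (-1.10). SLC16A1, which encodes MCT1, fell to 14.29 and 15.26 TPM in JMC45, against 34.28 and 32.91 TPM in vehicle (-1.13), close to the median gene, and was not called on the median-of-ratios scale (0.17). The exons of SLC16A3 overlap those of CSNK1D on the other strand, at 22.32 and 20.33 TPM in JMC45 and 58.6 and 57.12 TPM in vehicle, and use of strand in the quantification was not given in the sources used here.

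Both partners of the HIF dimer fell. HIF1A, the oxygen-labile subunit, measured 14.30 and 14.54 TPM in JMC45, against 49.19 and 41.41 TPM in vehicle. The groups were well apart, and the log2 change was -1.58 (SE 0.10, limma adjusted p = 3.37e-05, -0.27 on the median-of-ratios scale). ARNT, the shared partner, fell to 6.24 and 6.69 TPM in JMC45, against 28.21 and 23.26 TPM in vehicle (-1.83, limma adjusted p = 3.56e-05, -0.58 on the median-of-ratios scale). EPAS1, the second alpha subunit, was low in all libraries, with 1.21 and 0.71 TPM in JMC45 and 1.63 and 1.54 TPM in vehicle, and its change of -0.41 did not pass (limma adjusted p = 0.0724). The ratio of ARNT to HIF1A was 0.436 and 0.460 in JMC45 and 0.573 and 0.562 in vehicle.

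Among the oxygen sensors that restrain HIF, EGLN1 and EGLN2 had the largest decreases of the HIF regulators. EGLN1, the main prolyl hydroxylase of HIF, measured 5.21 and 5.85 TPM in JMC45, against 41.06 and 36.39 TPM in vehicle (log2 change -2.60, SE 0.11, limma adjusted p = 1.14e-05). EGLN2 measured 2.56 and 1.94 TPM in JMC45, against 21.98 and 18.00 TPM in vehicle (-2.69, SE 0.16, limma adjusted p = 2.33e-05). Only 4.55% and 3.61% of genes tested had a larger decrease, and on the median-of-ratios scale the changes were -1.35 and -1.55. Without the filter 44.6% of 31100 genes fell. EGLN3, itself a strongly HIF-induced gene, did not reach the filter, with 0.00 and 0.03 TPM in JMC45 and 0.83 and 0.90 TPM in vehicle, and without it its change was -0.88 (limma adjusted p = 0.00231). HIF1AN, the asparagine hydroxylase, fell to 1.78 and 2.71 TPM in JMC45, against 11.60 and 9.93 TPM in vehicle (-1.87, limma adjusted p = 0.000142, but 0.0536 with quantile normalization). Its exons overlap those of NDUFB8 on the other strand, at 638 TPM in each JMC45 library and 569 and 582 TPM in vehicle. HIF1A over EGLN1 was 2.74 and 2.49 in JMC45 and 1.20 and 1.14 in vehicle, and both JMC45 values lay above both vehicle values (exact permutation p = 0.33).

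Of the 7 HIF targets 5 were tested and all 5 fell on TPM, as did 80.7% of all genes tested. Their median change was -0.69, beside -1.10 for all genes tested and -1.85 for the HIF regulators. These differences were not tested. VEGFA, the main angiogenic factor, measured 20.38 and 19.26 TPM in JMC45, against 38.46 and 30.29 TPM in vehicle (log2 change -0.76, limma adjusted p = 0.00162). NDRG1, a stress-responsive gene also induced by androgens, measured 9.84 and 12.83 TPM in JMC45, against 27.33 and 34.09 TPM in vehicle (-1.36, limma adjusted p = 0.000329). Both JMC45 libraries lay below both vehicle libraries for each of these genes, as in 85.7% of all genes tested. On the median-of-ratios scale VEGFA was called higher (0.56) and NDRG1 was not called (-0.07). P4HA1 and P4HA2, alpha subunits of collagen prolyl hydroxylase, had log2 changes of -0.36 and -0.43 and were both called lower, whereas they were called higher on the median-of-ratios scale, at 0.93 and 0.48. The P4HA1 call on TPM was lost without the mitochondrially encoded genes (limma adjusted p = 0.0569). The P4HA2 call on TPM was lost without JMC45 replicate 1 (limma adjusted p = 0.108), without JMC45 replicate 2 (0.097), without the mitochondrially encoded genes (0.0685) and without the filter on low values (0.0627). ANKRD37, an ankyrin repeat gene whose exons overlap UFSP2 on the other strand, passed the filter only through its vehicle level, with 0.70 and 0.39 TPM in JMC45 and 1.26 and 1.74 TPM in vehicle (log2 change -0.69, limma adjusted p = 0.0129, but 0.0794 without JMC45 replicate 2). ADM, which encodes the vasodilator adrenomedullin, stayed under the filter, at 0.41 and 0.27 TPM in JMC45 and 1.19 and 1.4 TPM in vehicle. CA9, the hypoxia-induced carbonic anhydrase, was listed at 0.09 and 0.00 TPM in JMC45 and 0.00 and 0.10 TPM in vehicle, so this marker of a strong HIF response was near 0 in both groups.

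**Figure D4:**
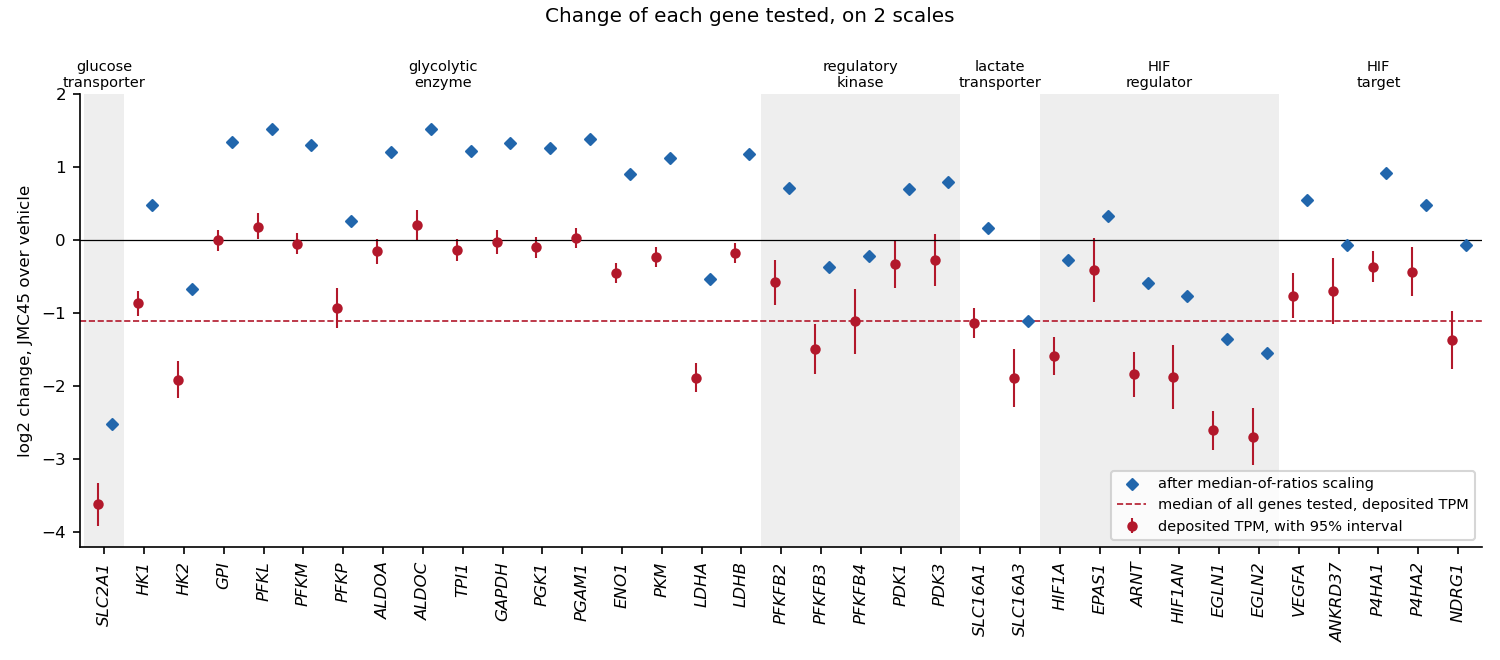
Log2 change (JMC45 over vehicle) of the 35 genes tested on deposited TPM, with 95% intervals, and on the median-of-ratios scale (diamonds), grouped by role, with a dashed line at the median of all genes on TPM (-1.10). Enzymes other than HK1, HK2, PFKP, ENO1 and LDHA lie within 0.23 of 0 on TPM, and HIF regulators other than EPAS1 lie below the dashed line.

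The decreases of 8 members held on each of 4 scales, which were deposited TPM, median-of-ratios scaling, quantile normalization and TPM at an equal mitochondrial total. They were SLC2A1, HK2, LDHA, SLC16A3, HIF1A, ARNT, EGLN1 and EGLN2, of which SLC16A3 was tested only because of its vehicle level. This is 22.9% of the 35 tested, beside 28.4% of all genes tested, so the share is near the background. By role it was 4 of 6 HIF regulators, 2 of 16 enzymes, 1 of 2 lactate carriers, SLC2A1, and 0 of 5 kinases and 0 of 5 HIF targets. Median-of-ratios scaling and the equal mitochondrial total each divide a library by 1 factor, so the 4 scales are not independent checks. A gene lower on the median-of-ratios scale was all but bound to be lower on TPM and at the equal mitochondrial total. HIF1AN and PFKFB3, lower on the median-of-ratios scale, were not called with quantile normalization. The 8 calls also held in each other alternative setting in which the gene was tested. No enzyme and no other member was called higher on all 4 scales, as 1.26% of all genes were.

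The other genes of these pathways were counted from lists of 140 genes, of which 104 were tested. On TPM 76 fell and 9 rose, beside 80.7% and 4.25% of all genes tested. On the median-of-ratios scale 24 fell and 60 rose, beside 35.3% and 35.5%. The counts by list that follow are on TPM, where the median of all genes was -1.10. Of 16 tricarboxylic acid cycle genes, which oxidise acetyl units in mitochondria, 7 fell and 4 rose, with a median of -0.09, close to that of the glycolytic enzymes. The oxoglutarate dehydrogenase gene OGDH (log2 change -1.17) and IDH3A (-1.08) fell most, while SUCLG2 (0.58), IDH3G (0.31) and MDH2 (0.21) were among those that rose, and at an equal mitochondrial total none of these 3 was called. Of 12 genes for pyruvate entry into mitochondria 9 fell and none rose, with a median of -0.86. The phosphatases and kinases of pyruvate dehydrogenase led them, PDP1 with 0.48 and 0.40 TPM in JMC45 against 6.94 and 5.97 TPM in vehicle (-2.37, past the filter only through vehicle), then PDK2 (-1.83), PDP2 (-1.77) and PDPR (-1.29). The catalytic subunit PDHA1 (-0.19) and DLD (-0.03) were not called.

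Of 11 further glycolytic isoenzymes and related genes tested, 8 fell and 1 rose, with a median of -0.96. Among all genes tested 80.7% fell and 4.25% rose, with a median of -1.10. PGAM2, the muscle-type mutase (-1.38), MINPP1 (-1.20) and TIGAR, a p53-induced phosphatase (-1.01), were among the largest decreases. ENO2, the neuronal enolase, rose by 0.17 on TPM (limma adjusted p = 0.0385) and fell by 0.28 at an equal mitochondrial total. In the pentose phosphate pathway, which makes NADPH and ribose, 5 of 8 fell and 1 rose. TKT, the transketolase, measured 142 and 127 TPM in JMC45 and 257 and 262 TPM in vehicle (-0.95), H6PD (-0.99), PGLS (-0.92) and PGD (-0.67) fell with it, and RPIA rose (0.44). Of 7 glycogen genes 4 fell and 1 rose, led by GYS1, the glycogen synthase of muscle and most tissues (-1.80), GYG1 (-1.35) and UGP2 (-0.59), against PYGB, the brain-type phosphorylase (0.49). Of 3 gluconeogenesis genes tested, PC fell (-0.31) and PCK2 rose (0.31). The increases of RPIA, PYGB and PCK2 were not called at an equal mitochondrial total.

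Of 8 other sugar and lactate carriers 6 fell and 1 rose, beside 80.7% and 4.25% of all genes tested. SLC2A12 fell to 0.31 and 0.19 TPM in JMC45, against 3.51 and 2.72 TPM in vehicle (-1.71), and SLC2A8 (-1.50), SLC2A10 (-1.19) and SLC16A8 (-0.84) also fell. All of these but SLC2A8 passed the filter on low values only through vehicle. BSG, the chaperone that brings lactate carriers to the cell surface, rose to 461 and 444 TPM in JMC45, against 343 and 342 TPM in vehicle (log2 change 0.40, limma adjusted p = 0.000697), while it was -0.06 at an equal mitochondrial total. SLC16A3, which BSG accompanies to the membrane, fell.

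Of 11 genes tested from a mixed list on HIF degradation and cofactors, 10 fell, with a median of -1.67. Among all genes tested 80.7% fell, with a median of -1.10. The listed genes do not all act on HIF in the same direction. On the median-of-ratios scale 6 of them fell and 3 rose. CITED2, which competes with HIF for coactivators, measured 15.47 and 13.25 TPM in JMC45, against 108.08 and 100.89 TPM in vehicle (log2 change -2.78, limma adjusted p = 1e-05). The coactivator EP300 (-2.51), the ubiquitin ligase SIAH1 (-2.30) and the cullin CUL2 (-2.28) followed. VHL, the recognition subunit of the ligase for hydroxylated HIF, fell by 1.32 on TPM and was not called on the median-of-ratios scale (-0.01), and the adaptor ELOB was not called on TPM (0.06). Of 28 other HIF targets 26 fell and none rose, with a median of -1.16, near that of all genes, and on the median-of-ratios scale 11 fell and 10 rose. BHLHE41, a transcriptional repressor, fell to 0.57 and 0.39 TPM in JMC45, against 18.85 and 12.30 TPM in vehicle (-3.46, past the filter only through vehicle), and HILPDA, a lipid droplet protein, to 1.58 and 2.12 TPM in JMC45, against 29.22 TPM in each vehicle library (-3.41). ANGPTL4, a lipase inhibitor (-2.74), and WSB1 (-2.26) were next. The HIF targets spanned a wide range, and P4HB (0.10) and ERO1A (-0.29), of collagen and disulfide processing, were not called.

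**Figure D5:**
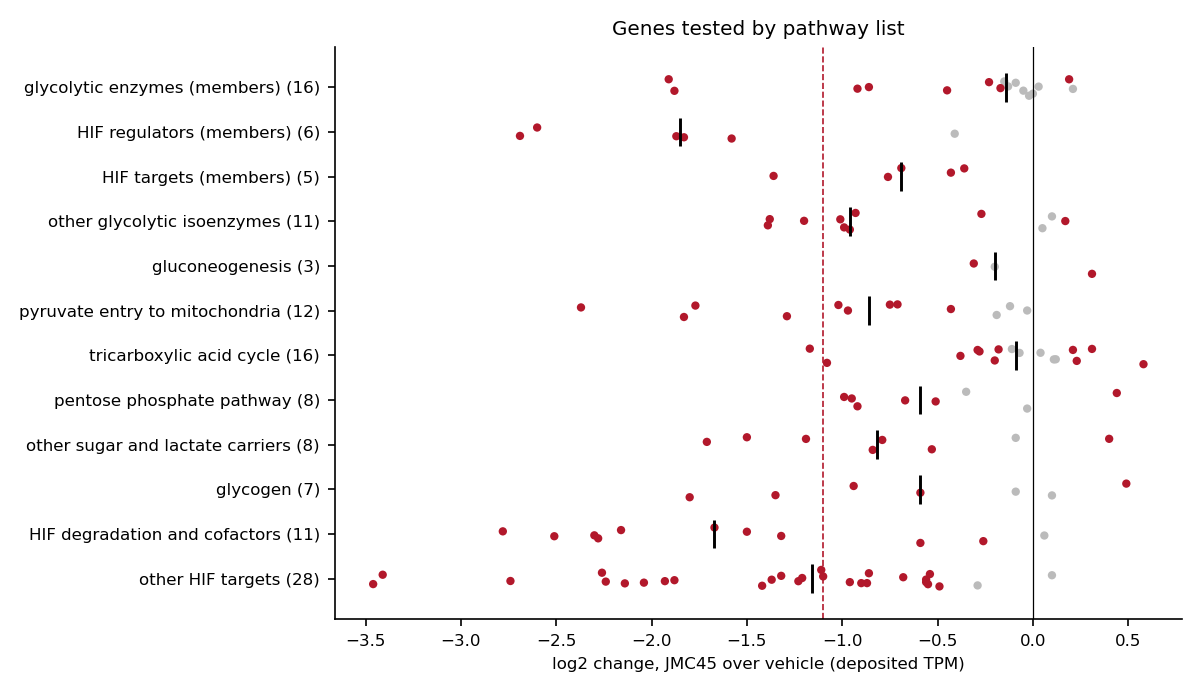
Log2 change on deposited TPM (horizontal axis) of each gene tested in 12 lists, without the transporters and regulatory kinases among the members, with red points for adjusted p under 0.05, grey points for the rest, black bars for medians and a dashed line at the median of all genes (-1.10). Glycolytic enzymes (-0.14) and tricarboxylic acid cycle genes (-0.09) centre near 0. HIF regulators (-1.85) and the mixed list on HIF degradation and cofactors (-1.67) centre furthest left of the lists plotted.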

How the data were processed

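RNA of 22Rv1 cells was sequenced in 4 libraries. The authors deposited TPM for each Ensembl gene and library, per the file headers, and the submitters' processing notes list the tools fastp, HISAT2 and StringTie and give neither their versions nor their roles. Library preparation was stranded with poly(A) selection, per the labels' protocols. Genome build, annotation and use of strand were not given in the sources used here. TPM keeps no depth, so the depth is unknown and no counting intervals are given.

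The table held 63241 genes and 50 lines without values, which were left out, and 62666 identifiers matched a symbol. Control columns were assigned to vehicle libraries by name and number. Log2(TPM + 1) of the 14018 genes averaging 1 TPM or more was tested with limma 3.58.1 (R 4.3.3). The test was two-sided and used an intensity trend, no replicate block and Benjamini-Hochberg adjustment over all genes. It was checked on simulated data. Intervals are limma's 95% intervals. Library sums and ratios were compared by exact permutation. Python 3.11.15, pandas 2.3.3, numpy 2.4.6, scipy 1.17.1 and matplotlib 3.10.9 were used for summaries and figures. Exon overlaps came from GENCODE 29, promoter windows from RefSeq (GRCh38.p14).

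All 39 members are named. Of each list of other genes, up to 4 with the largest called change and those that moved against the rest are named, with others chosen after their values were seen. Some genes that this rule would name are not reported here. Members and lists were chosen with earlier results of these data known. The settings tried in turn were median-of-ratios scaling, a pseudocount of 0.1, quantile normalization, a filter at 5 TPM or none, TPM without mitochondrially encoded genes, TPM also without cytosolic ribosomal protein genes, no intensity trend, the replicate block and each library left out, and, added after seeing the data, an equal mitochondrially encoded total.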

Additional observations from a re-analysis of the deposited data

How the results depend on the processing

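Directions of the enzymes other than HK2 and LDHA depend on the scaling. The lower calls of SLC2A1, HK2, LDHA, SLC16A3, HIF1A, ARNT, EGLN1 and EGLN2 held in each alternative in which the gene was tested. HIF1AN, PFKFB3 and NDRG1 also kept a negative change on the 4 scales, but were not called on each. With 2 libraries per group and unknown depth, the calls of PFKL and LDHB were lost in each fit that left out a library. A pseudocount of 0.1 changed no member's call. Members without a call on TPM gained one in the same direction for ALDOA (limma adjusted p = 0.0361) and EPAS1 (0.0413) without JMC45 replicate 1 and for PDK1 without the intensity trend (0.0241), besides ALDOC and the scalings.

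On deposited TPM 23 members fell and 1 rose. Median-of-ratios scaling gave 10 lower and 19 higher, and quantile normalization 12 and 14. Leaving out the mitochondrially encoded genes gave 3 higher, and leaving out ribosomal protein genes as well 15 lower and 11 higher. A mean TPM of at least 5 gave 2 higher. No filter, no intensity trend, the replicate block and the equal mitochondrial total gave 0 higher. Among all genes tested, 10695 of 14003 fell and 842 rose without the mitochondrially encoded genes. Without ribosomal protein genes as well, 9090 of 13926 fell and 1635 rose. At a mean TPM of at least 5, 7554 of 9110 fell and 461 rose.

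For the glycolytic enzymes (7 lower, 1 higher, median -0.14) median-of-ratios scaling gave 2 lower, 13 higher and a median of 1.22. Quantile normalization gave 7 higher and a median of 0.02, leaving out the mitochondrially encoded genes 3 higher and 0.01, leaving out ribosomal protein genes as well 4 lower, 11 higher and 0.35, and the equal mitochondrial total 14 lower, 0 higher and -0.60. A mean TPM of at least 5 gave 2 higher, and no filter, no intensity trend and the replicate block gave 0. Without the mitochondrially encoded genes the enzymes held 1.14% of TPM in JMC45 and 1.17% in vehicle.

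For the HIF regulators and targets (10 lower, 0 higher, median -1.36) median-of-ratios scaling gave 5 lower, 3 higher and -0.07, and quantile normalization 4 lower, 4 higher and -0.14. Leaving out the mitochondrially encoded genes gave a median of -1.24, leaving out ribosomal protein genes as well 6 lower and -0.92, the equal mitochondrial total -1.80, no filter -0.83 and a mean TPM of at least 5 -1.71. The no-filter median includes the 3 members otherwise untested.

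For the other pathway genes (76 lower, 9 higher) median-of-ratios scaling gave 24 and 60, quantile normalization 26 and 48, leaving out ribosomal protein and mitochondrially encoded genes 31 higher and the equal mitochondrial total 0 higher.

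Leaving out each library in turn gave 0 to 1 members and enzymes higher, an enzyme median of -0.16 to -0.10, a HIF median of -1.54 to -1.19 and 5 to 8 other genes higher. GPI ranged from -0.03 to 0.02, GAPDH from -0.06 to 0.02 and PGAM1 from just under 0 (-0.00 when rounded) to 0.06. These ranges cross 0.

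Signs turned after median-of-ratios scaling for HK1 (0.48), GPI (1.35), PFKM (1.31), PFKP (0.26), ALDOA (1.21), TPI1 (1.23), GAPDH (1.34), PGK1 (1.26), ENO1 (0.91), PKM (1.13), LDHB (1.19), PFKFB2 (0.72), PDK1 (0.71), PDK3 (0.80), SLC16A1 (0.17), EPAS1 (0.33), VEGFA (0.56), P4HA1 (0.93) and P4HA2 (0.48). After quantile normalization they turned for GPI (0.39), PFKM (0.45), PFKP (0.45), ALDOA (0.05), PGK1 (0.27), PFKFB2 (0.65), PFKFB4 (0.02), PDK1 (0.93), PDK3 (1.00), SLC16A1 (0.03), EPAS1 (0.63), VEGFA (0.37), ANKRD37 (0.29), P4HA1 (0.87) and P4HA2 (0.71). Without the mitochondrially encoded genes they turned for GPI (0.14), PFKM (0.10), TPI1 (0.02), GAPDH (0.13) and PGK1 (0.05). Without ribosomal protein genes as well they turned for GPI (0.49), PFKM (0.44), ALDOA (0.34), TPI1 (0.36), GAPDH (0.47), PGK1 (0.40), ENO1 (0.04), PKM (0.26), LDHB (0.32), PDK1 (0.05), PDK3 (0.13) and P4HA1 (0.11). With the equal mitochondrial total they turned for PFKL (-0.26), ALDOC (-0.23) and PGAM1 (-0.43). The scaling shifts the change of every gene by construction.

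Replicate numbers are shared between groups, but same-numbered libraries did not deviate together (r = -0.0471 across 14018 genes). With the replicate number as a block, the calls of PFKL (limma adjusted p = 0.0728) and LDHB (0.087) were lost and no other member's call changed.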
